A study of Arabidopsis thaliana with 8 samples.

Results

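The genes described here encode regulators of the stability of the CONSTANS (CO) protein, and the question was where CO ChIP-seq peaks lay at these genes themselves. The rule that chose them names the loci and uses no measured value, although the list was drawn up with earlier results of these data known: *COP1* (AT2G32950), *SPA1* (AT2G46340), *SPA2* (AT4G11110), *SPA3* (AT3G15354), *SPA4* (AT1G53090), *HOS1* (AT2G39810), *CRY1* (AT4G08920), *CRY2* (AT1G04400), *PHYA* (AT1G09570) and *PHYB* (AT2G18790), 10 of the 27444 protein-coding genes of the TAIR10.1 RefSeq annotation, which carries all 10 loci under these symbols. A peak was counted for a gene when it overlapped, by at least 1 bp, the window made of the gene body and the 5000 bp upstream of its start. These windows held 16 and 13 peaks in replicates 1 and 2 of *SUC2::CO:CIT*, and 1 peak in each replicate of *SUC2::CO:CIT aba1-6*.

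Seedlings carried CO fused to the fluorescent protein CITRINE and driven by the *SUC2* promoter, which is active in phloem companion cells. The transgene was a single homozygous insertion line in Col-0, and the second genotype was the same insertion brought by crossing into *aba1-6*, a mutant of the *ABA1* gene that is impaired in making the hormone abscisic acid (ABA). Each genotype gave 2 ChIP libraries and 2 input libraries, from 5 g of seedlings grown under 16 h of light and 8 h of dark and collected 12 h after dawn. Chromatin came from whole seedlings, and no library from plants without the tag was analysed here, so that peaks of the tagged protein and background of the chromatin of other cells cannot be told apart. The *SUC2::CO:CIT* lists hold 21054 and 22724 peaks and the *aba1-6* lists 168 and 258. The background of fragments (the number expected at a position by chance) was 11.2 and 10.8 in the former and 3.57 and 0.774 in the latter, so the *aba1-6* libraries were shallower and needed 11 and 5 fragments at a summit for a call, against 23 and 22. In the paper, both *aba1-6* replicates had very low mapping rates, and low yields of DNA are held likely to have affected them. The paper also subsampled *SUC2::CO:CIT* reads to similarly low rates and still called many more peaks than in *aba1-6*. It proposes that low binding of CO:CIT could partly account for the near absence of reproducible peaks, and its ChIP-qPCR found less CO:CIT at *FT* in *aba1-6*. Peak summits of *aba1-6* also differed in base composition, with a median GC content of 40.8% and 40.3% against 21.9% and 22.4%. The number of peaks therefore moved with depth and library quality as well as with genotype, and these cannot be told apart.

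CO activates the florigen gene *FT* at the end of long days, and its protein is destroyed when light signals are lacking. COP1 is the ubiquitin ligase that marks CO for degradation in the dark, and the SPA proteins are its partners in that complex. The blue-light receptors CRY1 and CRY2 and the far-red receptor phytochrome A hold COP1 and SPA in check in the light, whereas phytochrome B, the main red-light receptor, and the ubiquitin ligase HOS1 lower CO early in the day. All of this acts on the CO protein. The peaks described here lie on the chromatin of the genes for these regulators. Whether they reflect CO bound there, or any effect on these genes, was not tested.

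The sequences under the summits on which the results turn are given first, the summit base with 50 bases on either side, read from the TAIR10.1 RefSeq genome in the direction of the gene. The first 3 are the peaks of both *SUC2::CO:CIT* replicates within 1000 bp upstream of a start (that of *SPA1* is shortened to the 65 bases before its start). The 2 summits upstream of *CRY1* have the highest fold enrichments of replicate 1 in the windows, the 2 in *PHYB* are the peaks of *aba1-6*, and these 4 were chosen after their values had been seen. Positions are given in bp from the start of the gene, and capitals mark TGTG or its reverse complement CACA, the word that CO contacts at *FT*.
PHYA, summit −133, chr1:3100902-3101002, minus strand: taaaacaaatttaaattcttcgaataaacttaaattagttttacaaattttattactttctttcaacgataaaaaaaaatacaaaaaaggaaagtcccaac
SPA2, summit −727, chr4:6770828-6770928, plus strand: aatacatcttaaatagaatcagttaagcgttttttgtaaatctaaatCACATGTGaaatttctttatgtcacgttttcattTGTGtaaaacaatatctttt
SPA1, summit −15, chr2:19027529-19027593, minus strand: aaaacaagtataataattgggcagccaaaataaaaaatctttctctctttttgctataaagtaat
CRY1, summit −2231, chr4:5721370-5721470, plus strand: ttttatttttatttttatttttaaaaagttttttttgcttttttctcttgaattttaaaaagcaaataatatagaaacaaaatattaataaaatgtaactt
CRY1, summit −2738, chr4:5720863-5720963, plus strand: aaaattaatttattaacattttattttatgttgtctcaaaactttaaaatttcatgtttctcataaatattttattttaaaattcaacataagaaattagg
PHYB, summit +2266, chr2:8141972-8142072, plus strand: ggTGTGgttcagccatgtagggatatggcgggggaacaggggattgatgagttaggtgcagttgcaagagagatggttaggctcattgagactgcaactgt
PHYB, summit +2982, chr2:8142688-8142788, plus strand: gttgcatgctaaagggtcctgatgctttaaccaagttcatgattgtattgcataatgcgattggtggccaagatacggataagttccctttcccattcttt
The *CRY1*, *PHYA* and *SPA1* stretches are rich in A and T, as is that of *SPA2*, and have no TGTG or CACA. Only *SPA2* among the 5 *SUC2::CO:CIT* stretches shown has the word, at 3 positions, 2 of which adjoin. The *PHYB* stretches come from coding exons and have a GC content of 51.5% and 41.6%, against 11.9% to 24.6% in the others.

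Of the 10 genes, 6 had a peak in replicate 1 of *SUC2::CO:CIT* and 5 in replicate 2, and the same 5, *SPA1*, *SPA2*, *HOS1*, *CRY1* and *PHYA*, had one in both. *SPA4* had a peak in replicate 1 only. *COP1*, *SPA3* and *CRY2* had none in any list, and *PHYB* had peaks only in *aba1-6*. Of all protein-coding genes, 65.4% had a peak in replicate 1, 68.6% in replicate 2 and 60.2% in both, so that the counts of 6, 5 and 5 of 10 were near or under these shares, although the windows of the 10 genes are longer (median 10026 bp against 7078 bp). No peak in any list was found for 25.3% of all genes and for 3 of these 10. In *aba1-6*, 0.998% and 1.65% of all genes had a peak in replicates 1 and 2.

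The numbers of peaks differed between the genotypes by more than the replicates did. The windows held 14.5 ± 2.12 peaks in *SUC2::CO:CIT* and 1.0 ± 0 in *aba1-6* (mean ± SD, n = 2 libraries each), a difference of 13.5 (exact permutation test, two-sided, p = 0.333). The number of genes with a peak was 5.5 ± 0.707 and 1.0 ± 0, a difference of 4.5 (exact permutation test, two-sided, p = 0.333). With 2 libraries against 2, 0.333 is the smallest p this test can give. The whole lists differed likewise, with 21054 and 22724 peaks against 168 and 258, so the difference is not particular to these genes.

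**Figure D1:**
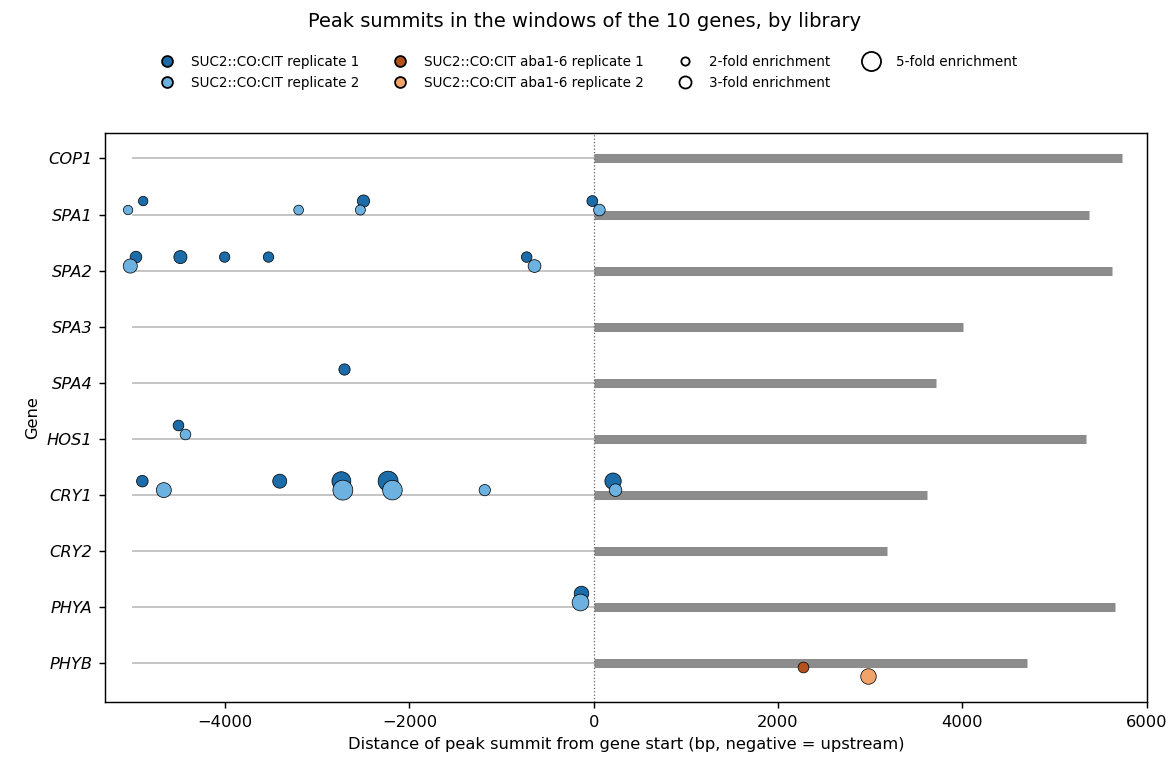
Positions of peak summits (x axis, bp from the gene start) in the windows of the 10 genes (rows) by library (colours), with the area of a point growing with fold enrichment, thin lines for the 5000 bp upstream and thick bars for gene bodies. *CRY1* carries 5 peaks in each *SUC2::CO:CIT* replicate, *PHYA* a peak of both just before its start, and the *aba1-6* points lie only in the body of *PHYB*.

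*COP1*, the ligase subunit itself, had no peak in its 10729 bp window. The nearest peaks of both *SUC2::CO:CIT* replicates lay beyond its end, with summits 694 and 768 bp past it and fold enrichments of 2.71 and 3.13. On the upstream side the nearest summits were at −6443 and −6575 bp, closer to *ZFN2* (2481 and 2349 bp from that start) than to *COP1*. The window of *COP1* is thus bordered by peaks of both replicates on either side.

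The 4 *SPA* genes differed among themselves. *SPA1* had 3 and 4 peaks in replicates 1 and 2, *SPA2* 5 and 2, *SPA4* 1 and 0, and *SPA3* none. *SPA1* and *SPA2* were the genes of the COP1/SPA group with a peak of both replicates in the 1000 bp upstream of the start.

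At *SPA1*, after which the family of COP1 partners is named, the summits nearest to the start lay at −15 bp in replicate 1 and +62 bp, in the 5′ UTR, in replicate 2. Their fold enrichment (fragments at the summit over background, 1 added to both) was 2.66, from 36 fragments over 12.9, and 2.87, from 34 over 11.2. A second pair, at −2498 and −2532 bp, had fold enrichments of 3.04 and 2.45 and lay nearer to the start of AT2G46360 (1667 and 1701 bp) than to that of *SPA1*. The pair at −4889 and −5053 bp, with 2.30 and 2.28, was nearest to *JAR1*, which encodes the enzyme that joins jasmonate to isoleucine (1169 and 1005 bp upstream of it). The peak at −3202 bp in replicate 2 (2.37) had no counterpart in replicate 1. Only the peaks at the start are therefore closer to *SPA1* than to another gene.

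*SPA2* had its proximal summits at −727 and −642 bp, in the 1319 bp between AT4G11100 and *SPA2*. Their fold enrichment was 2.59 (39 fragments over 14.5) in replicate 1 and 3.19 (39 over 11.5) in replicate 2. The same number of fragments was thus counted at both summits, and the background differed. The remaining *SPA2* peaks were in the stretch between *TBL23* and AT4G11100, more than 3500 bp from *SPA2*. Replicate 1 had 4 separate peaks there (−4967, −4485, −4005 and −3529 bp, with fold enrichments of 2.90, 3.28, 2.55 and 2.55), and replicate 2 a single peak of 1237 bp (summit −5029 bp, 3.55) which overlapped 3 of them. The difference between 5 and 2 peaks at *SPA2* thus came with a difference in how this stretch was divided into peaks, and the length covered by peaks in the whole window was 1236 and 1369 bp. All of these distal summits were nearest to *TBL23* or AT4G11100.

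*SPA4* had the peak of replicate 1 at −2711 bp (2.79, 33 fragments over 11.2), 814 bp upstream of AT1G53080 and beyond that gene as seen from *SPA4*. Peaks of both replicates, with 3.69 and 4.39, lay at −5620 and −5645 bp, 255 and 316 bp outside the window and 568 and 593 bp upstream of AT1G53070. *SPA3* had no peak in its window of 9011 bp. Its nearest summits in both replicates were at −9800 and −9750 bp (4.11 and 4.39), upstream of *UBC25*, a gene for a ubiquitin-conjugating enzyme, and 4104 and 4036 bp past its end (2.79 and 2.70).

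*HOS1* had 1 peak per replicate, at −4515 bp (2.63, 31 fragments over 11.2) and −4439 bp (2.62, 30 over 10.8). These lay between *P5CS1*, a gene of proline synthesis, and AT2G39805, whose body separates them from *HOS1*. The nearest start was that of AT2G39805, 4292 and 4216 bp away. A further peak of replicate 1, at −5157 bp (2.38), lay 48 bp outside the window. No peak of either replicate lay in the 222 bp between *HOS1* and its upstream neighbour.

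*CRY1* and *CRY2*, the paralogous cryptochrome genes, were at opposite ends of the group. *CRY1* had 5 peaks in each *SUC2::CO:CIT* replicate, where 0.966% of all protein-coding genes had at least 5 in each, and it was the only one of the 10 genes with a fold enrichment of at least 5 in both replicates, against 1.92% of all genes. *CRY2* had none.

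In replicate 1, the *CRY1* summits were at −4898, −3407, −2738, −2231 and +210 bp, with fold enrichments of 2.87, 3.53, 4.93, 5.25 and 4.19. In replicate 2 they were at −4665, −2722, −2184, −1182 and +237 bp, with 3.80, 5.24, 5.15, 2.79 and 3.13. The highest pair of each replicate matched closely in place: the outer summits (−2738 and −2722 bp) were 16 bp apart and the inner ones (−2231 and −2184 bp) 47 bp apart. The mean fold enrichment was 5.08 ± 0.219 at the outer and 5.20 ± 0.0707 at the inner pair (SD, n = 2). At −2231 bp in replicate 1, 63 fragments were counted over a background of 11.2 (q = 5.15e-24), which ranked 522 among the 21054 peaks by significance. At −2722 bp in replicate 2, 61 fragments stood over 10.8 (q = 3.81e-23), rank 499 of 22724. For scale, the peak at *FT* itself had a fold enrichment of 3.69 and 3.30, with 44 and 38 fragments. Both *CRY1* summits were higher than the *FT* peak in either replicate, but no test was made between summits within a library.

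The *CRY1* peaks upstream of the start were all in the 7448 bp between AT4G05675, a long non-coding RNA gene, and *CRY1*, in which no other gene is annotated. The outermost summit of each replicate (−4898 and −4665 bp) was nearer to AT4G05675, and the other 8 summits were nearer to *CRY1*. The summits at +210 and +237 bp fell in the 5′ UTR, and these peaks had 50 fragments over 11.2 in replicate 1 and 36 over 10.8 in replicate 2. Peaks covered 3440 bp (39.9%) and 3041 bp (35.3%) of the *CRY1* window, against at most 12.9% in any other of the 10. The widest spanned 1258 bp in replicate 1 and 1127 bp in replicate 2, widths reached by 1.34% and 2.09% of the peaks of these lists. Past the end of *CRY1*, both replicates had another peak at 1592 and 1609 bp (5.09 and 5.66), 309 and 292 bp upstream of *APRL6*.

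*CRY2* had no peak in its window of 8185 bp, but peaks of both replicates began 34 and 86 bp past the end of the gene. Their summits were 135 and 282 bp past the end, with fold enrichments of 3.53 (42 fragments) and 3.80 (44 fragments), above the median of 2.88 and 3.13 for the peaks inside the 10 windows. The annotated start nearest to them was that of AT1G04390, at 1673 and 1526 bp. Whether *CRY2* counts as a gene with a peak is thus decided by a window that stops at the gene end.

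*PHYA* and *PHYB*, the phytochrome genes, also differed from each other. *PHYA* had a single peak in each *SUC2::CO:CIT* replicate, with summits at −133 and −154 bp, 21 bp apart, in the 329 bp between AT1G09575 and *PHYA*. The fold enrichment was 3.69 (44 fragments over 11.2, q = 5.00e-12) and 4.31 (50 over 10.8, q = 5.87e-16), with a mean of 4.00 ± 0.438 (SD, n = 2). These were the highest fold enrichments among the peaks overlapping the 1000 bp upstream of *SPA1*, *SPA2* and *PHYA*, the 3 genes with such a peak in both replicates. Of all protein-coding genes, 30.2% had one. The next peaks on either side of *PHYA* were at least 6516 bp outside its window.

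*PHYB* had no peak in the *SUC2::CO:CIT* replicates, the nearest summits being 2182 and 2092 bp past its end, between genes and 1762 and 1672 bp from the start of *XTH21*, with fold enrichments of 3.28 and 2.96. It had 1 peak in each *aba1-6* library. That of replicate 1 had its summit at +2266 bp, with 12 fragments over 3.93 (2.64-fold, q = 0.236), and that of replicate 2 at +2982 bp, with 6 fragments over 0.774 (3.95-fold, q = 0.075). The intervals (231 and 252 bp, in coding exons) did not overlap each other, and both q-values were above 0.05, as for 60 and 103 of the peaks of these lists. By the lowest −log10 p of 3 alone, a summit of 1.97-fold and 1.94-fold over the background of the genome would have passed in the *SUC2::CO:CIT* replicates. The lowest fold enrichments called there in these windows were 2.3 and 2.28. Ratios of libraries that differ in depth are not on the same scale.

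Peaks in both *aba1-6* libraries with none in either *SUC2::CO:CIT* replicate were found at 4 of the 27444 protein-coding genes (0.0146%). These were *PHYB*, its neighbour AT2G18780, whose upstream window reaches the same peaks, AT2G08986 and AT4G02030 (the last 3 named after their values had been seen). The 2 peaks of *PHYB* rest on 12 and 6 fragments at different places, and no single site in *PHYB* was found in both libraries.

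Most of the peaks in the windows were found again in the other *SUC2::CO:CIT* replicate when an overlap of 1 bp sufficed. The lists were not filtered for irreproducible peaks. Of the 16 peaks of replicate 1, 14 (87.5%) overlapped a peak of replicate 2, and of the 13 of replicate 2, 12 (92.3%) overlapped one of replicate 1, against 80.1% and 74.2% in the whole lists. The exceptions were the *SPA2* peak at −3529 bp and the *SPA4* peak in replicate 1, and the *SPA1* peak at −3202 bp in replicate 2. The overlaps made 15 pairs, of which 9 had summits within 100 bp of each other, and the median distance was 77 bp. In the windows, the fold enrichment ranged from 2.30 to 5.25 in replicate 1 (median 2.88, whole list 3.12) and from 2.28 to 5.24 in replicate 2 (median 3.13, whole list 3.13). With *CRY1* and *PHYA* aside, the values of the other genes lay between 2.28 and 3.55.

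Positions of low GC content moved with the peaks across the 10 genes. The GC content over the summit and the 100 bp on either side was below 25% at 11 of the 16 peaks of replicate 1 (68.8%) and 11 of the 13 of replicate 2 (84.6%), and at 80.8% and 78.4% of the peaks in the whole lists. The number of positions in a window with a GC content below 25% over the 100 bp on either side was 0 in *CRY2*, 13 in *COP1*, 34 in *SPA3* and 81 in *PHYB*, the 4 genes without a *SUC2::CO:CIT* peak. It was 157 in *PHYA*, 244 in *HOS1*, 628 in *SPA4*, 761 in *SPA1*, 1040 in *SPA2* and 3106 in *CRY1*, the 6 genes with a peak, so that these groups did not overlap. The same split at 100 positions, chosen after these values had been seen, separated the annotation at large: a peak in at least 1 *SUC2::CO:CIT* replicate was found for 1877 of the 7532 genes below it (24.9%) and for 18390 of the 19912 genes at or above it (92.4%). As many positions as in *CRY1* were found in 0.179% of all protein-coding genes. The median gene had 327. The share of base composition in the placement of the peaks was not tested.

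**Figure D2:**
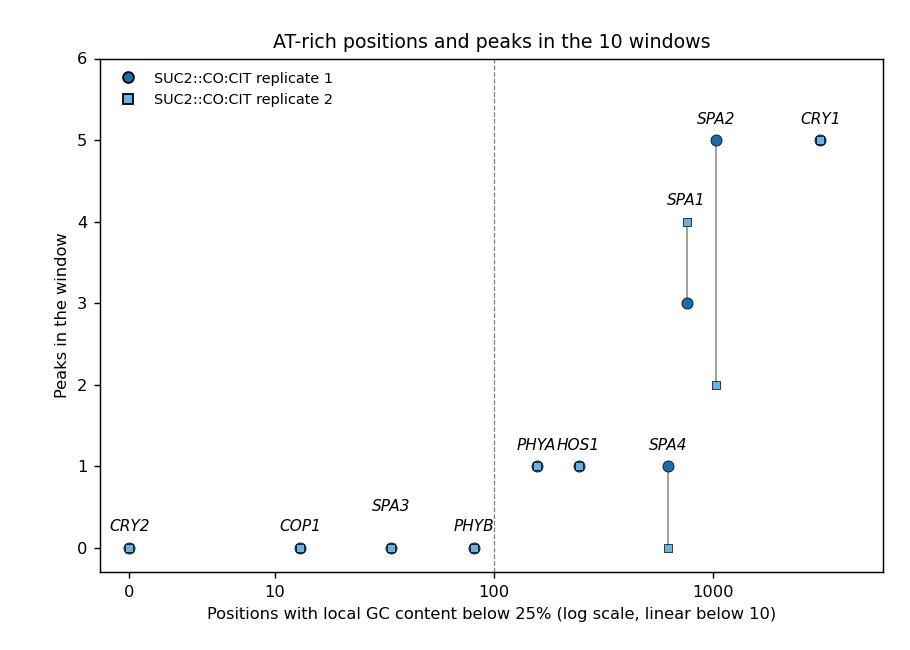
Number of peaks in the window (y axis) against the number of positions with a GC content below 25% over the 100 bp on either side (x axis, log scale, linear below 10) for the 10 genes, with circles for replicate 1 and squares for replicate 2 of *SUC2::CO:CIT*; the dashed line is at 100 positions. The 4 genes left of the line have 0 peaks in both replicates, and *CRY1*, farthest right with 3106 positions, has 5 in each.

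The GC content at the summits varied within the windows, and summits were not tested against other positions of their window. The lowest value in the *PHYA* window was 19.9%, and its summits lay in the same dip, at 21.9% and 20.9%. The *CRY1* window reaches 11.9%, a value as low in 4.04% of genes, and the summit at −3407 bp had this GC content. Other summits lay well above the lowest value of their window: that of *HOS1* in replicate 1 had 29.9% where the window reaches 21.4%, and the *SPA1* summits at −4889, −15 and −5053 bp had 26.4%, 26.9% and 27.9% where the window reaches 19.4%. The lowest values of *COP1* and *CRY2* were 24.9% and 26.4%. By contrast, the *PHYB* summits of *aba1-6* had 48.8% and 45.3%, near the medians of 40.8% and 40.3% of those lists and far from the 21.9% and 22.4% of the *SUC2::CO:CIT* lists.

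**Figure D3:**
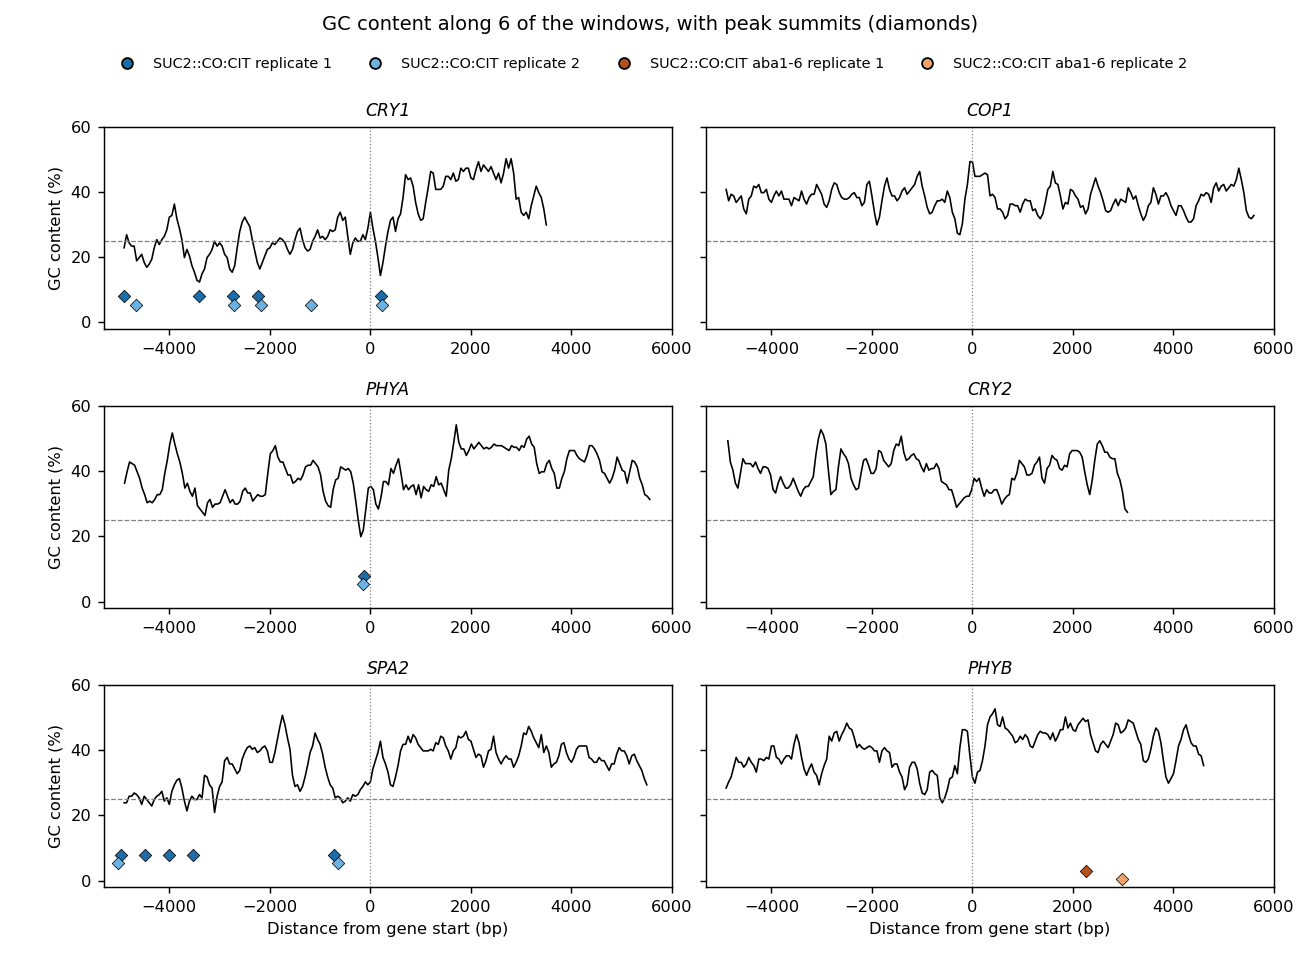
GC content over the 100 bp on either side (y axis, %) along the windows of 6 genes (x axis, bp from the start), with diamonds for peak summits of each library and a dashed line at 25%. The *PHYA* summits lie in its deepest dip, those of *CRY1* between 11.9% and 23.9% and those of *SPA2* between 18.9% and 26.4%, *COP1* and *CRY2* have almost no stretch below the line and no peak, and the *aba1-6* summits of *PHYB* lie at 48.8% and 45.3%.

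None of the *SUC2::CO:CIT* peaks in the windows had a counterpart in *aba1-6*, and the number to be found at the depth of these libraries was calculated. The fragments at each summit were scaled by the ratio of the backgrounds. This holds fragments over background fixed without the added 1, so the fold enrichment as defined above is not held fixed. Of the 16 peaks of replicate 1, 9.77 were then calculated to reach the fragments needed in replicate 1 of *aba1-6*. In its replicate 2 the number was 2.47. For the 13 peaks of replicate 2 the numbers were 8.23 and 2.19. The number found was 0 in each case. The calculation took no account of the length of a peak or of how well reads mapped. The *CRY1* summit at −2231 bp was scaled to 20.1 fragments in replicate 1 of *aba1-6*, where 11 were needed, a chance of 99%, and to 4.36 in replicate 2, where 5 were needed (44.1%). The *PHYA* summits were scaled to 14.0 and 16.5 fragments in replicate 1 (82.7% and 93.7%) and to 3.05 and 3.57 in replicate 2 (19.3% and 28.8%). For *HOS1*, *SPA4* and most of the *SPA1* peaks the scaled number was under the number needed in both libraries.

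Such calculated chances were higher than what recurred. Between the *SUC2::CO:CIT* replicates, where 96.8% of the peaks of replicate 1 were calculated to recur in replicate 2, 80.1% did, and of those with a chance of at least 99%, 90.9% did. In the whole list of replicate 1, 523 peaks had a chance of at least 99% in replicate 1 of *aba1-6*, and 9 of them (1.72%) were found there. The absence of the *CRY1* peaks was therefore shared with nearly all peaks of like height. In replicate 2 of *aba1-6*, 3222.6 peaks of the whole list of replicate 1 (15.3%) were calculated to recur, and 14 were found. From the whole list of replicate 2, 3448.4 (15.2%) were calculated and 15 found. The 4 peaks of each list with a chance of at least 99% were all found there. The whole lists thus fell short of the calculation in this library too. At these genes alone, where 2.47 and 2.19 peaks were calculated, a loss was not detectable at this depth. In both *aba1-6* libraries, genotype and library quality cannot be told apart, and the reason for the absence was not tested.

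**Figure D4:**
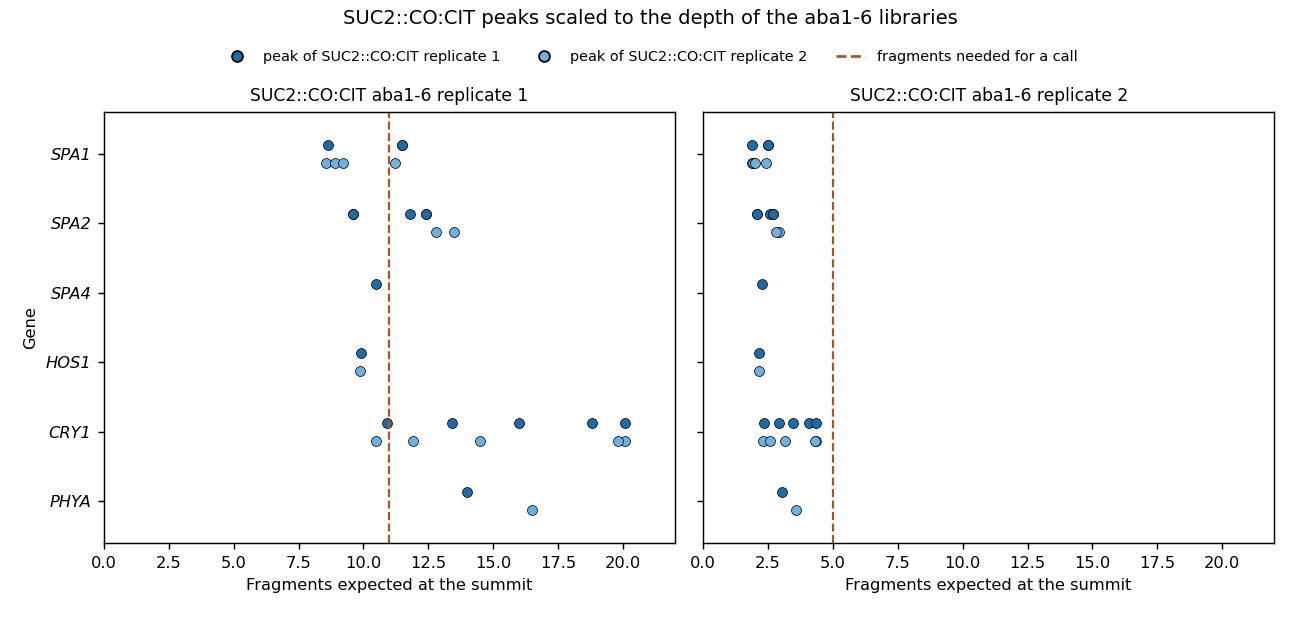
Fragments expected at the summit (x axis) in each *aba1-6* library if fragments over background (without the added 1) were as in *SUC2::CO:CIT*, for each peak in the windows of the 6 genes with such peaks (rows, where colours give the replicate the peak comes from), with dashed lines at the 11 and 5 fragments needed over the background of the genome. Both *PHYA* peaks and 8 of the 10 *CRY1* peaks lie to the right of the line in replicate 1, up to 20.1, and all points lie to its left in replicate 2.

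Words that CO or its partners are known to contact lay under few of these summits. TGTG or its reverse complement CACA occurred within 50 bp of 5 of the 16 summits of replicate 1 (31.2%) and 4 of the 13 of replicate 2 (30.8%), against 35.4% and 35.7% of all peaks of these lists. The shorter element CCACA (or TGTGG, which contains TGTG), also described at *FT*, occurred at 2 and 2 summits (12.5% and 15.4%, against 5.65% and 5.74%). TGTG followed after 2 or 3 bases by ATG, the full CO-responsive element, occurred at none, as against 1.51% and 1.72% of all peaks, and neither did the G-box CACGTG (0.256% and 0.321%). Both strands were searched for every word. These are matches of letters in short windows and do not show that a site is bound or free.

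Peaks at other genes of light signalling were counted in the same way. Of a list of 40, all found in the annotation, 28 (70.0%) had a peak in replicates 1 and 2 of *SUC2::CO:CIT*, and 13 (32.5%) had one in the 1000 bp upstream in both, against the 60.2% and 30.2% of all protein-coding genes. The 10 other photoreceptor genes (among them *PHYC*, *PHOT1* and *FKF1*) had 7 of the former and 0 of the latter. The 4 listed genes of phytochrome A import into the nucleus had 4 and 3, and the 9 listed subunit genes of the COP9 signalosome 6 and 4. The 7 genes grouped with the CUL4 ligase and its CDD complex, among them *RUP1* and *RUP2*, had 4 and 2. The 2 *BIC* genes had 2 and 1, and the 8 listed targets of COP1 or phytochromes 5 and 3.

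The highest mean proximal fold enrichment of the list was at *FAR1*, with 4.76 at −306 bp in replicate 1 and 4.99 at −597 bp in replicate 2. *FAR1* and *FHY3* encode related transcription factors that switch on *FHY1*, whose product carries phytochrome A into the nucleus. *FHY3* had 3.12 and 5.07, and *FHY1* itself 3.37 and 4.23, at −421 and −412 bp. *CUL4*, the scaffold of the ligase in which COP1 and SPA work, had 3.94 and 4.31, and *BIC2*, an inhibitor of cryptochromes, 4.02 and 3.21. The peak before *PHYA* (3.69 and 4.31) thus lay within the range of these 5 genes. In *aba1-6*, only *DDB1B* in replicate 1 and *LAF1* in replicate 2 had a peak, and *DDB1B* had none in *SUC2::CO:CIT* (both named after their values had been seen).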

How the data were processed

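CO:CITRINE was immunoprecipitated with anti-GFP nanobodies. Reads were trimmed (fastp), mapped (Bowtie2) and turned into peaks (macs2) by the authors, each of the 4 ChIP libraries against its own input and without pooling. Versions are not given in the sources used here. The lists were those before filtering for irreproducible peaks or artefact regions, and read coverage was not analysed here. Their sequence names are those of the TAIR10.1 RefSeq assembly. The deposited fold enrichment is a ratio, summit fragments over background with 1 added to both, which lowers it most where the background is small, so ratios of libraries that differ in depth are not on 1 scale. macs2 also wrote the deposited −log10 p and −log10 q columns, with q-values adjusted library by library. The deposited score repeats the −log10 p times 10 and went unused. Summits were placed from the offset that the authors' files give for each peak.

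Samples were grouped by genotype and assay from their titles. For each peak, the whole number of fragments and the Poisson rate were sought that yield the listed fold enrichment and p-value together. On 2000 simulated peaks 100% were recovered, and of the real peaks 98.21% to 100% matched to 0.1% of the −log10 p. The fragments set the precision, and no intervals were computed since the lists hold only called peaks. Numbers per library were compared by an exact permutation test of the 4 libraries. Ranks are by −log10 p. Recurrence at another depth was the Poisson chance that the scaled number of fragments reached the number needed for the lowest −log10 p of 3. The GC content was taken over 100 bp and words over 50 bp on either side of a position. Alternatives were −log10 q of at least 5 or 10, other windows and overlaps, leaving out each library, and a replicate block.

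The 10 genes and the list of 40 were chosen with earlier results of these data known. The genes named were the 10, the gene with the nearest start for every peak in their windows, and the 5 of the list with the highest mean fold enrichment among those with peaks of replicates 1 and 2 of *SUC2::CO:CIT* in the 1000 bp upstream. Neighbours of peaks outside the windows were named too. The split at 100 positions and the comparison with depth were devised after values had been seen. Computations used Python 3.11.15 with numpy 2.4.6, pandas 2.3.3, scipy 1.17.1 and matplotlib 3.10.9.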

Additional observations from a re-analysis of the deposited data

How the results depend on the processing

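The difference between genotypes kept its direction under every alternative run. The sizes of the whole lists, 21054 and 22724 peaks against 168 and 258, left little room for another direction. It was 13.5 peaks and 4.5 genes as reported. With only peaks of −log10 q 10 or more it fell to 5.0 peaks and 2.5 genes, 2 genes (*CRY1* and *PHYA*) had a peak in each *SUC2::CO:CIT* replicate, and 1 (*PHYA*) had one in the 1000 bp upstream. With the gene body alone it was 1.0 peaks and 1.0 genes, and 2 genes had a peak in both replicates. With 1000 bp and 3000 bp upstream it was 3.0 and 7.0 peaks. When sharing required 50% of the shorter peak and summits within 100 bp, the share of replicate 1 peaks found again was 56.2%. Leaving out each library gave 12.0 to 15.0 peaks and 4.0 to 5.0 genes. From a −log10 q of 5 upwards, the *PHYB* peaks of *aba1-6* were no longer in the lists. With a replicate block the differences were 13.5 peaks and 4.5 genes (exact permutation within pairs, p = 0.5, the smallest possible). The labels do not say whether same-numbered libraries were handled together. The correlation of their deviations (r = −0.0121 across 27444 genes, which are not independent replicates) cannot decide this. Only 0.998% and 1.65% of genes had a peak in the *aba1-6* libraries, so most of their deviations were 0. At the depth of replicate 1 of *aba1-6*, 9.77 of 16 and 8.23 of 13 peaks were calculated to reach the fragments needed at the summit. In its replicate 2 the numbers were 2.47 and 2.19, and 0 were found in either library. The reason for this absence was not tested.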
